A study of Mus musculus with 6 samples.

Results

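The 10 genes described here encode platelet-derived growth factors (Pdgfa, Pdgfb, Pdgfc and Pdgfd), their receptors (Pdgfra and Pdgfrb), basic fibroblast growth factor (Fgf2) and FGF receptors (Fgfr1, Fgfr2 and Fgfr3). They were chosen by symbol from the 54429 genes of the count table, and all 10 were found. The edgeR filter on low counts kept 9 of them among the 16065 genes tested, and Pdgfc was left out. The RNA came from primary aortic endothelial cells (EC) of adult wild-type (WT) C57BL/6 mice, bought as a primary culture and transduced with a lentivirus carrying Meis1 and YFP (Meis1-OE, 3 libraries) or YFP without Meis1 (YFP-CTRL, 3 libraries). Cells were seeded at 100000 a well, exposed to virus for 48 h, sorted at 72 h for YFP, CD31 and VE-cadherin (VEC), and then grown again to confluency before RNA was taken from 300000 cells. The comparison asked what forced Meis1 expression does to the transcripts of adult EC. Both groups therefore carry an integrated vector, passed the same sort and grew after it in medium with serum, heparin and an endothelial growth supplement, so the cells were not free of added growth factors.

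PDGF ligands are secreted as dimers and signal through a pair of receptor tyrosine kinases. PDGF-B made by endothelium is known for recruiting the pericytes and smooth muscle cells that carry PDGFRβ. PDGFRα is best known from mesenchymal cells and fibroblasts and has PDGF-A and PDGF-C among its ligands. FGF2 is bound by heparan sulfate, which it needs to activate its receptors, and FGFR1 is the receptor best known from endothelium. The receptors of both families signal through the RAS and ERK cascade, which induces its own inhibitors.

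Libraries are called by the letter their columns carry. Meis1 itself was counted between 135325 and 157828 times in Meis1-OE EC and between 39 and 85 times in YFP-CTRL EC, and reads of the vector and of the endogenous gene were not separated. Library totals ran from 34176642 to 47956605 counts. All 12 endothelial markers were counted in every library, with a summed level of 3733 to 4623 in the Meis1-OE and 4762 to 6601 in the YFP-CTRL libraries as CPM (counts scaled to library size, with TMM factors). The sums were thus lower in Meis1-OE EC without overlap, but single markers went both ways. Vwf rose (log2 fold change 3.12, edgeR adjusted p = 0.0120) and Tek fell (-0.78, edgeR adjusted p = 0.0351). Kdr (-1.23, edgeR adjusted p = 0.0504) and Cdh5 (-0.70, edgeR adjusted p = 0.0535) were lower but did not pass 0.05. The YFP-CTRL libraries were not alike. A score of 15 proliferation genes, the mean of log2(CPM + 1), was 4.17 in YFP-CTRL A, 5.16 in B and 6.34 in C, against 6.37 to 6.41 in the 3 Meis1-OE libraries. YFP-CTRL C thus lay near the Meis1-OE libraries on this score, and results that rest on it are given with and without it. The Meis1-OE libraries hardly differed in the score, so the slope of a fit adjusted for it rests on the YFP-CTRL libraries. Such a fit sets Meis1-OE EC against the level fitted for YFP-CTRL near the score of library C. Whether the score itself follows Meis1 was not tested. These are bulk samples, so a change in the number of cells of one kind and a change in RNA per cell cannot be told apart.

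By edgeR's quasi-likelihood test none of the 9 members tested passed an adjusted p of 0.05, in either direction. Over all genes tested the test called 4.14% higher and 2.73% lower with Meis1-OE. At an unadjusted p under 0.05 it counted 2 members higher (Pdgfa and Pdgfb) and 1 lower (Pdgfra). Of all 16065 genes tested, 2050 were higher and 2155 lower at that threshold. DESeq2, by its adjusted p, called 1 member higher (Pdgfb) and 1 lower (Pdgfra). Of the 18158 genes with a DESeq2 adjusted p, it called 1128 higher and 1115 lower. The groups did not overlap for 4 members (Pdgfa, Pdgfb, Pdgfd and Pdgfra), beside 33.1% of all genes tested. The median log2 fold change over the 9 members was 0.21, against 0.010 over all genes tested.

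**Figure D1:**
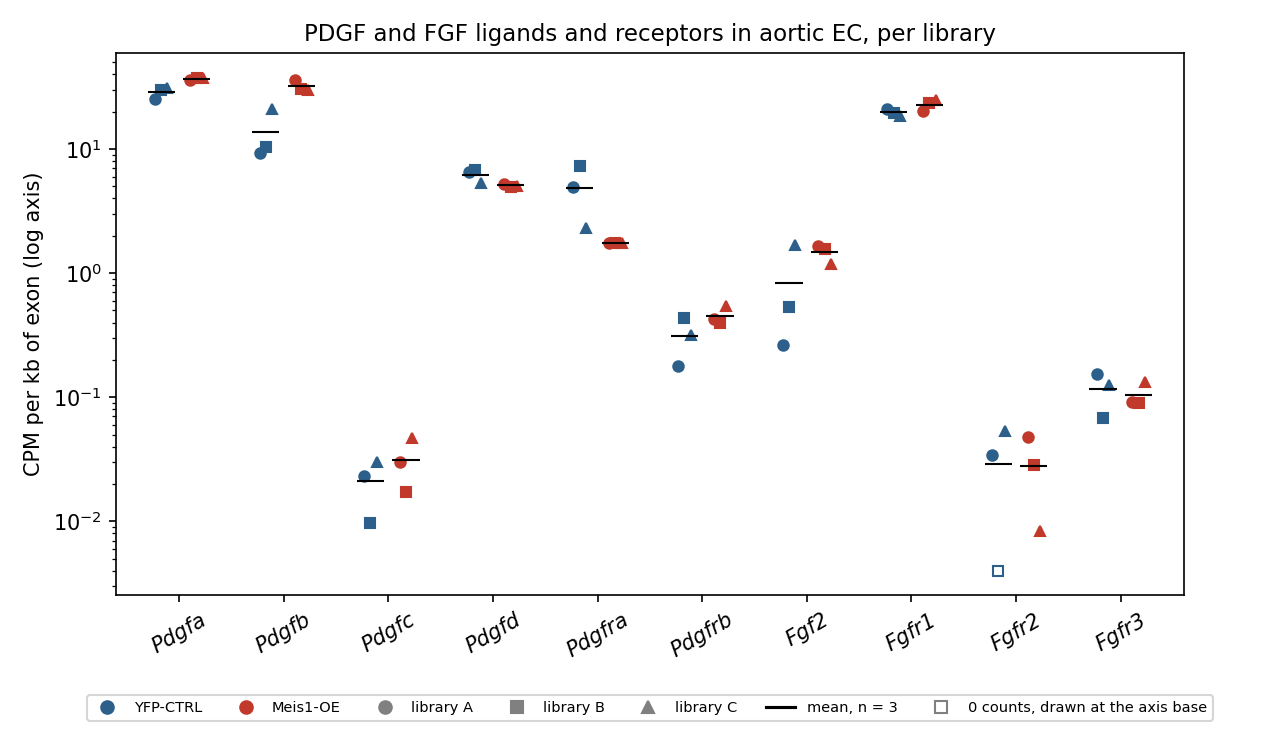
Level of each of the 10 genes in each library as CPM per kb of exon on a log axis, with YFP-CTRL in blue, Meis1-OE in red, a marker shape for each library letter and a line at the mean of 3 libraries. Pdgfa, Pdgfb and Fgfr1 sit highest in both groups, Pdgfc and Fgfr2 lowest, and Pdgfb and Pdgfra separate the groups most widely.

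Per length of exon, the order of the members was led in both groups by the ligand gene Pdgfa, at 36.9 ± 0.960 CPM per kb with Meis1-OE and 28.7 ± 3.10 CPM per kb with YFP-CTRL (SD, n = 3 each). In YFP-CTRL EC, Fgfr1 came next at 19.7 ± 1.26 CPM per kb and Pdgfb after it at 13.6 ± 6.56 CPM per kb, and the libraries of these neighbours overlapped. In Meis1-OE EC, Pdgfb stood at 32.1 ± 3.27 CPM per kb, above Fgfr1 at 22.8 ± 2.25 CPM per kb. That position depends on the length used: divided by the longest transcript instead of all exons, Fgfr1 stood at 36.9 CPM per kb and was above Pdgfb. Pdgfd and Pdgfra followed in both groups, and in YFP-CTRL EC these also overlapped. Fgf2, Pdgfrb and Fgfr3 came lower still (with the longest transcript, Fgf2 was above Pdgfra in Meis1-OE EC), and Fgfr2 and Pdgfc, which did not differ beyond their spread, were last with means between 0.0210 and 0.0314 CPM per kb.

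Of the member ligands, Pdgfb had the largest difference between the groups. The gene lies at chr15:79995865-80024614 of GRCm38 and encodes the chain that endothelium releases to attract mural cells. It was counted 4776, 4033 and 4039 times in Meis1-OE A, B and C, and 923, 1237 and 2807 times in YFP-CTRL A, B and C. Every Meis1-OE library was above every YFP-CTRL library, and YFP-CTRL C was the nearest to them. On the CPM scale the means were 93.5 ± 9.53 and 39.8 ± 19.1 (SD, n = 3 each), a ratio of 2.35. The log2 fold change was 1.23 (SE 0.31, edgeR adjusted p = 0.0588), just short of the call. DESeq2 gave an adjusted p of 0.00226. Without YFP-CTRL C the log2 fold change was 1.69 (edgeR adjusted p = 0.000777), and adjusted for the proliferation score it was 0.68 (edgeR adjusted p = 0.0976).

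The 3 genes whose level ran most like that of Pdgfb over the 6 libraries were Ttyh2, Cpt1a and AW554918, with Pearson correlations of log2(CPM + 1) of 0.999, 0.998 and 0.997. They were the closest of 10221 genes whose mean reached 5 CPM. These libraries share 2 groups and the split among the YFP-CTRL libraries, so the correlations are a description. Like Pdgfb, these genes were lower in YFP-CTRL A and B than in C and highest in Meis1-OE EC. For Cpt1a, which encodes the carnitine palmitoyltransferase of the outer mitochondrial membrane, the mean was 164 ± 6.35 CPM with Meis1-OE and 90.8 ± 27.1 CPM with YFP-CTRL (SD, n = 3 each).

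Pdgfa, which lies at chr5:138976014-139000792 and encodes the chain that acts mainly through PDGFRα, was counted 5108, 5322 and 5397 times in Meis1-OE A, B and C. The counts in YFP-CTRL A, B and C were 2662, 3803 and 4386. The groups did not overlap, and the spread among Meis1-OE libraries was small beside that among YFP-CTRL libraries. Mean levels were 115 ± 2.99 and 89.4 ± 9.67 CPM (SD, n = 3 each), and the log2 fold change was 0.37 (SE 0.12, edgeR adjusted p = 0.103). It passed without YFP-CTRL C, at a log2 fold change of 0.41 (edgeR adjusted p = 0.0293). Without YFP-CTRL A it was 0.27 (edgeR adjusted p = 0.137), and adjusted for the proliferation score 0.21 (edgeR adjusted p = 0.344). On library totals without TMM, which raised the median log2 fold change of all genes from 0.010 to 0.15, the value was 0.51 (edgeR adjusted p = 0.0287).

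Pdgfd, at chr9:6168363-6534284, encodes a ligand of PDGFRβ that a protease must first cleave. It was counted 744, 704 and 731 times in Meis1-OE A, B and C, and 693, 858 and 758 times in YFP-CTRL A, B and C. After scaling, the Meis1-OE libraries lay at 15.5 to 16.3 CPM and the YFP-CTRL libraries at 16.7 to 21.0 CPM, so they did not overlap, though only narrowly. The log2 fold change was -0.29 (SE 0.13, edgeR adjusted p = 0.221), and it was -0.40 (edgeR adjusted p = 0.0254) without YFP-CTRL C. It was -0.12 (edgeR adjusted p = 0.696) when adjusted for the proliferation score and -0.15 (edgeR adjusted p = 0.532) on library totals. Pdgfc, the other ligand that needs cleavage, lies at chr3:81036416-81214040 and was barely counted, with 7, 4 and 11 counts in Meis1-OE EC and 4, 2 and 7 in YFP-CTRL EC. No difference in Pdgfc was detectable at this depth.

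The balance among the ligands followed from these levels. Per length of exon, the level of Pdgfb relative to Pdgfa was 0.999, 0.810 and 0.800 in Meis1-OE A, B and C. In YFP-CTRL A, B and C it was 0.371, 0.348 and 0.684. The level of Pdgfd relative to Pdgfb was 0.146 to 0.169 in Meis1-OE EC and 0.702, 0.649 and 0.253 in YFP-CTRL A, B and C. Within YFP-CTRL EC both ratios in library C lay nearer to the Meis1-OE libraries than those in A and B did. These 2 ratios, and 3 given further on, were chosen after the values were seen and carry no test.

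**Figure D2:**
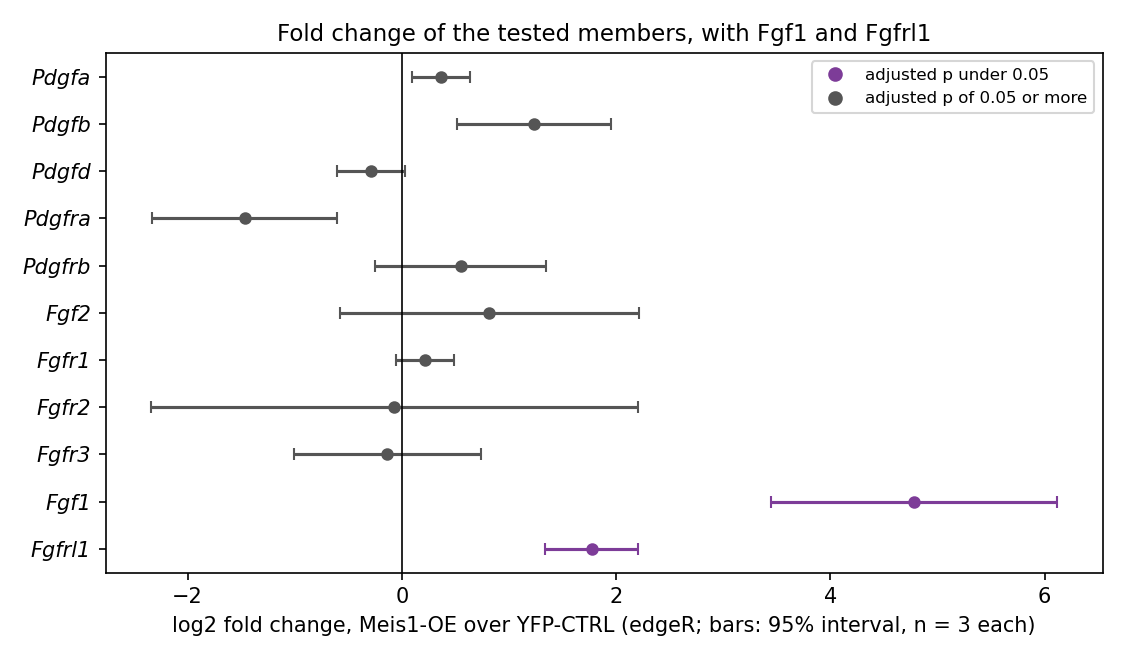
Log2 fold change of Meis1-OE over YFP-CTRL from edgeR for the 9 members tested and for Fgf1 and Fgfrl1, with 95% confidence intervals as bars and n = 3 libraries in each group. Pdgfa, Pdgfb and Pdgfra have intervals that leave out 0 but adjusted p-values above 0.05, and Fgf1 at 4.78 and Fgfrl1 at 1.77 passed the threshold.

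Of the member receptors, Pdgfra had the largest difference, and it was toward lower levels in Meis1-OE EC. It lies at chr5:75151322-75198206 and was counted 543, 535 and 544 times in Meis1-OE A, B and C. In YFP-CTRL A, B and C it was counted 1130, 2005 and 707 times. The Meis1-OE libraries were nearly equal, the YFP-CTRL libraries were spread widely above them, and YFP-CTRL C was again the closest. The means were 11.8 ± 0.0677 CPM with Meis1-OE and 32.7 ± 16.8 CPM with YFP-CTRL (SD, n = 3 each). The log2 fold change was -1.47 (SE 0.37, edgeR adjusted p = 0.0598), and DESeq2 gave an adjusted p of 0.00140. Without YFP-CTRL C the log2 fold change was -1.82 (edgeR adjusted p = 0.00125), without YFP-CTRL B it was -1.04 (edgeR adjusted p = 0.168), and adjusted for the proliferation score it was -0.78 (edgeR adjusted p = 0.359).

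Because Pdgfra is a marker of fibroblasts in many tissues, the levels of 10 fibroblast markers are given beside it. Their summed level was 0.613 to 3.11 CPM over the Meis1-OE and 0.147 to 0.660 CPM over the YFP-CTRL libraries, and these ranges overlapped. Lum, Dpt, Thy1 and Tcf21 had no count in any library, and Dcn and Col1a1, which encode a matrix proteoglycan and a collagen chain, had at most 2 and 8 counts. Postn made up much of the Meis1-OE sum, and the collagen genes were near the floor. In Meis1-OE A, B and C, Col1a1 had 3, 4 and 1 counts, Col1a2 0, 3 and 0, and Col3a1 4, 0 and 6. In YFP-CTRL A, B and C, Col1a1 had 4, 8 and 6 counts, Col1a2 0, 0 and 13, and Col3a1 1, 7 and 7. The single fibroblast marker that could be tested, the matricellular gene Postn, rose in Meis1-OE EC, with counts of 20, 53 and 131 against 0, 2 and 4 (log2 fold change 4.83, edgeR adjusted p = 0.0312). Of 10 macrophage markers, 6 had no count in any library, C1qa, Adgre1 and Aif1 among them. Cd68, which many cell types express, was counted 2198 to 5703 times. Csf1r was counted 15, 26 and 18 times in Meis1-OE EC and 1, 4 and 12 times in YFP-CTRL EC, and Lyz2 6, 40 and 37 times against 8, 8 and 7, and neither passed (edgeR adjusted p = 0.148 and 0.181). The part of these markers in the Pdgfra values was not tested.

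A start of Pdgfra is shown because its window holds TGACAG, the hexamer that MEIS proteins are known to prefer, across an annotated transcription start. This start lies inside the gene span given above, so it is not the first start of the gene. The window runs from 250 bases before to 30 bases after that RefSeq start, on the plus strand of GRCm38.p6 (chr5:75152001-75152280), and capitals mark the hexamer, which begins 3 bases before the start.
Pdgfra promoter: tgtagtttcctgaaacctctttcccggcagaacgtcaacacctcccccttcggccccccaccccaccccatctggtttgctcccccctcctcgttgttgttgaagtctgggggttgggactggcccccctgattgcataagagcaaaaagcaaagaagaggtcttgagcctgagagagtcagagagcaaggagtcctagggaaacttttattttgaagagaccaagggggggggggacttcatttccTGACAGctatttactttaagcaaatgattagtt
Read on both strands (TGACAG or CTGTCA), the hexamer was present in 5855 of 32851 promoter windows of 280 bases (17.8%). Of the members, 7 had a promoter in the RefSeq table, with 9 windows, and 2 of these held it, those of Pdgfra and Pdgfd. In the Pdgfd window it began 106 bases before the start. A match of 6 letters describes the sequence and does not mark a bound site.

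Pdgfrb, at chr18:61045127-61085067, encodes a receptor for PDGF-B and PDGF-D and is best known from pericytes and smooth muscle. It was low, with 107, 99 and 137 counts in Meis1-OE A, B and C and 33, 97 and 79 counts in YFP-CTRL A, B and C. The groups overlapped on the CPM scale, where YFP-CTRL B lay within the range of the Meis1-OE libraries. The log2 fold change was 0.55 (SE 0.34, edgeR adjusted p = 0.344), and it stayed short of the threshold in all 14 alternatives, with adjusted p-values from 0.207 to 0.853 by edgeR or DESeq2. Per length, the level of Pdgfra relative to Pdgfrb was 4.13, 4.39 and 3.23 in Meis1-OE A, B and C. It was 27.8, 16.8 and 7.28 in YFP-CTRL A, B and C. Pdgfra was thus the more abundant receptor transcript in all 6 libraries, by a smaller margin in each Meis1-OE library than in any YFP-CTRL library.

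Markers of mural cells, which carry Pdgfrb in vessels, summed to 247 to 285 CPM over the Meis1-OE and 272 to 696 CPM over the YFP-CTRL libraries. Nearly all of that was Mcam, an adhesion molecule that endothelium also expresses. Kcnj8 had no count in any library and Rgs5 at most 3, and both are pericyte genes. Acta2, the smooth muscle actin, was counted 152, 64 and 46 times in Meis1-OE A, B and C and 7, 89 and 902 times in YFP-CTRL A, B and C. Des, the muscle intermediate filament gene, was the only one of the 5 mural markers tested that passed, and it rose, with 20, 18 and 24 counts in Meis1-OE EC and 0, 2 and 2 in YFP-CTRL EC (edgeR adjusted p = 0.0150). No fold is given for Des, because no YFP-CTRL library had more than 3 counts. The log2 fold changes of the others tested went both ways. They were 1.27 for Notch3 (edgeR adjusted p = 0.0689), 0.61 for Anpep (edgeR adjusted p = 0.168), -0.94 for Mcam (edgeR adjusted p = 0.111) and -1.96 for Acta2 (edgeR adjusted p = 0.359). The part of these markers in the Pdgfrb values was not tested.

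Fgf2, the FGF ligand best known from endothelial culture, lies at chr3:37348477-37410106. It was counted 136, 129 and 99 times in Meis1-OE A, B and C and 16, 39 and 138 times in YFP-CTRL A, B and C. The groups overlapped, since YFP-CTRL C held as much Fgf2 as the Meis1-OE libraries while YFP-CTRL A and B held less. The log2 fold change was 0.81 (SE 0.60, edgeR adjusted p = 0.422). It was 1.86 (edgeR adjusted p = 0.0131) without YFP-CTRL C. Adjusted for the proliferation score it was -0.20 (edgeR adjusted p = 0.773), so its direction turned. Nudt6 overlaps the end of Fgf2 on the opposite strand, and no source says whether reads were counted by strand, so those of the overlap could belong to either. Nudt6 itself had a log2 fold change of -0.54 (edgeR adjusted p = 0.220).

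Fgfr1, at chr8:25518759-25575718, was the main FGF receptor of these cells. It was counted 7509, 8535 and 9259 times in Meis1-OE A, B and C and 5756, 6439 and 6784 times in YFP-CTRL A, B and C. Scaled for depth, the groups overlapped, at 164 to 200 CPM for Meis1-OE and 149 to 170 CPM for YFP-CTRL. The log2 fold change was 0.21 with a 95% interval from -0.059 to 0.48 (SE 0.12, edgeR adjusted p = 0.289). It passed in none of the 14 alternatives, where it lay between 0.15 and 0.35.

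The other FGF receptors were scarce. Fgfr3, at chr5:33721724-33737068, was counted 29, 28 and 42 times in Meis1-OE EC and 36, 19 and 39 times in YFP-CTRL EC. Its log2 fold change was -0.14 with a 95% interval from -1.01 to 0.74 (edgeR adjusted p = 0.854). Fgfr2, at chr7:130162451-130266808, had 17, 10 and 3 counts in Meis1-OE A, B and C and 9, 0 and 19 counts in YFP-CTRL A, B and C. The log2 fold change of Fgfr2, -0.070, had a 95% interval from -2.34 to 2.20 (edgeR adjusted p = 0.973), so a change of several fold in either direction was not detectable at this depth. Fgfr4, the remaining kinase receptor of the family, never exceeded 4 counts and was not tested.

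**Figure D3:**
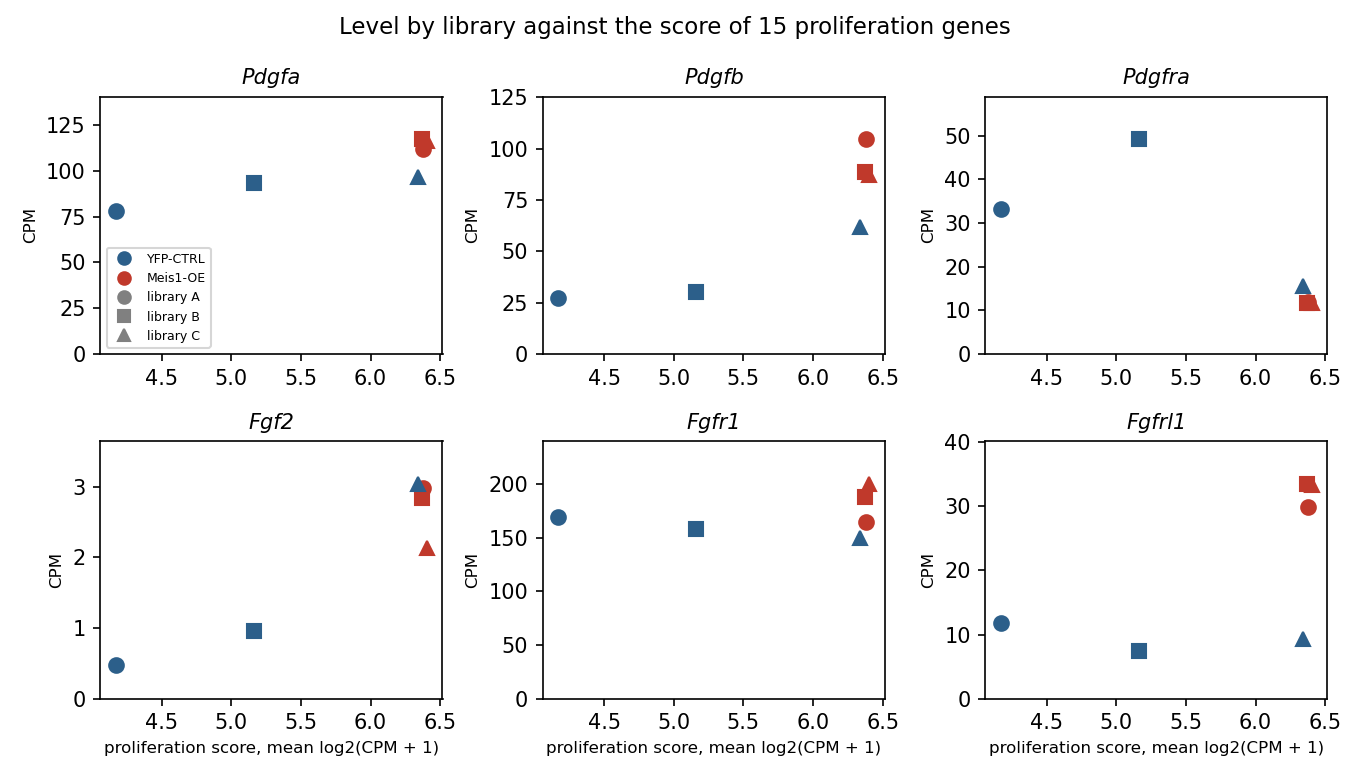
TMM-scaled CPM of 6 genes (vertical axis, from 0) against the proliferation score of each library (horizontal axis, mean log2(CPM + 1) of 15 genes), with YFP-CTRL in blue and Meis1-OE in red. YFP-CTRL C, at a score of 6.34, sits beside the Meis1-OE libraries for Fgf2 and close to them for Pdgfra, between the groups for Pdgfb, and with the other YFP-CTRL libraries for Fgfrl1.

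**Figure D4:**
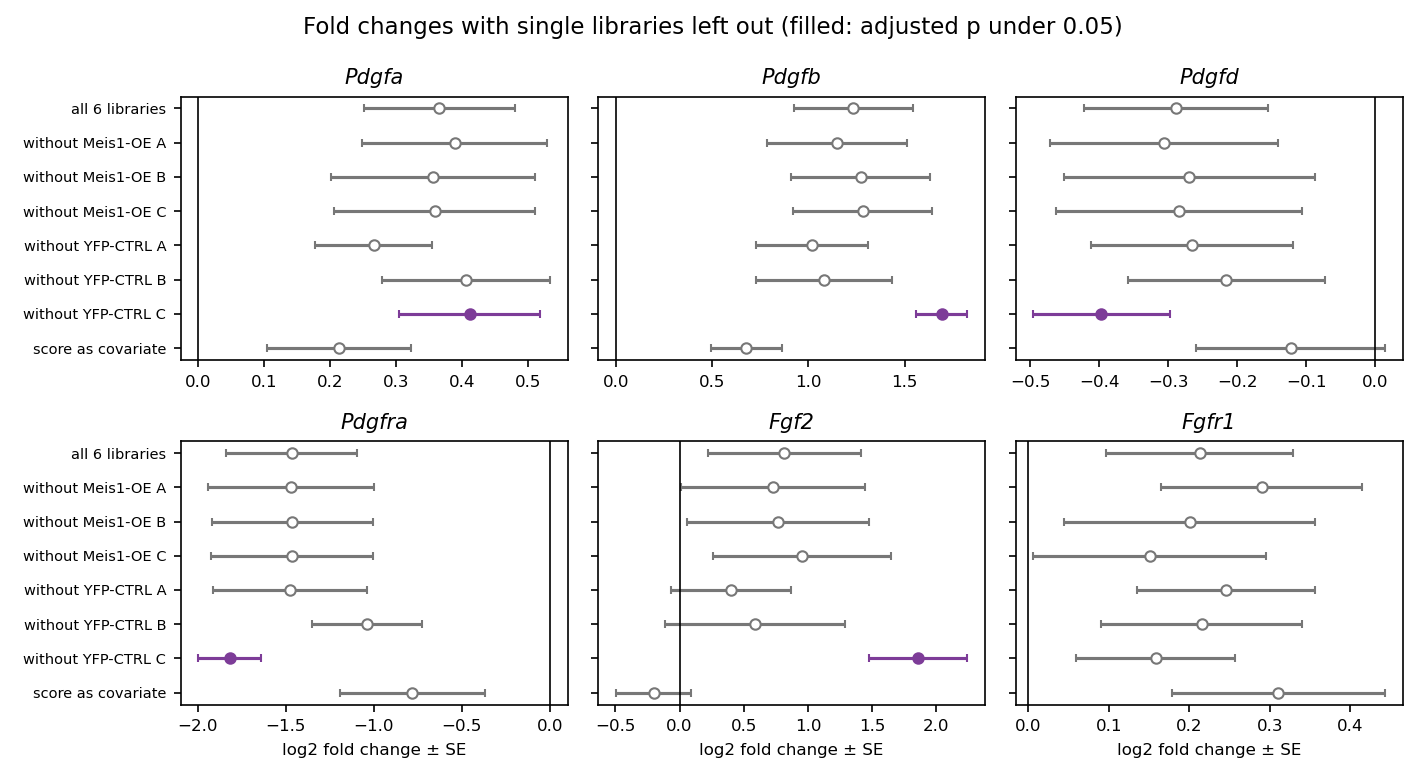
Log2 fold change with its SE (horizontal axis) for Pdgfa, Pdgfb, Pdgfd, Pdgfra, Fgf2 and Fgfr1 with all 6 libraries, without each library in turn, and with the proliferation score in the fit. Filled points passed an edgeR adjusted p of 0.05, which 5 of the 6 genes, all but Fgfr1, did without YFP-CTRL C and none did in the other fits shown.

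YFP-CTRL C was the library on which the calls of the members turned. Without it, 3 members were higher (Pdgfa, Pdgfb and Fgf2) and 2 were lower (Pdgfd and Pdgfra) by their edgeR adjusted p. Calls over all genes rose as well, to 2717 higher and 2498 lower of 16443 tested. With all 6 libraries they were 665 higher and 438 lower of 16065 tested. With any 1 of the other 5 libraries left out, no member passed. Values also moved with YFP-CTRL A and B. The log2 fold change of Pdgfrb was 0.26 without YFP-CTRL A, 0.88 without B and 0.54 without C, and none of these passed (edgeR adjusted p from 0.243 to 0.564).

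Among the 21 other FGF genes, 5 had enough counts to be tested, 1 rose and 1 fell. Their median log2 fold change, 0.45, was that of Fgf11, which like Fgf12, Fgf13 and Fgf14 on this list encodes an intracellular factor and not a receptor ligand. The one that rose was Fgf1, acidic FGF, which can bind every FGF receptor. It was counted 117, 215 and 199 times in Meis1-OE A, B and C, and 1, 4 and 12 times in YFP-CTRL A, B and C. The groups were far apart, and YFP-CTRL C was again the nearest, though still far below any Meis1-OE library. Mean levels were 3.87 ± 1.15 and 0.131 ± 0.121 CPM (SD, n = 3 each), and the log2 fold change was 4.78 (SE 0.57, adjusted p = 0.00710 from edgeR). Fgf1 passed in each of the 13 alternatives in which it was tested, with log2 fold changes from 3.77 to 5.78, and was absent from the one that asked for 10 counts in every library. Per length, its level relative to Fgf2 was 0.334, 0.646 and 0.779 in Meis1-OE A, B and C. That ratio was 0.0242, 0.0398 and 0.0337 in YFP-CTRL A, B and C, lower than in any Meis1-OE library.

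The FGF ligand that fell was Fgf15, a hormone-like FGF best known from the intestine, with 32, 33 and 41 counts in Meis1-OE EC and 112, 149 and 57 in YFP-CTRL EC. Its log2 fold change was -1.82 (edgeR adjusted p = 0.0476), and it did not pass in 9 of the 14 alternatives. Those included leaving out any library except YFP-CTRL C, with adjusted p-values from 0.0934 to 0.210 by edgeR, and adjustment for the proliferation score, where it was -0.97 (edgeR adjusted p = 0.255). Fgf7, Fgf11 and Fgf17 were tested and did not pass, with log2 fold changes of 0.74, 0.45 and -0.70 and edgeR adjusted p-values of 0.334, 0.420 and 0.425.

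Of 9 other FGF receptor and binding protein genes, 5 were tested, 2 rose and none fell, with a median log2 fold change of 0.20. Fgfrl1 encodes a receptor-like protein that binds FGF but has no tyrosine kinase domain, and it lies at chr5:108694229-108706950. It was counted 1368, 1520 and 1545 times in Meis1-OE A, B and C and 399, 301 and 420 times in YFP-CTRL A, B and C. All 3 YFP-CTRL libraries were alike here, YFP-CTRL C included, and all lay far below the Meis1-OE libraries. The means were 32.3 ± 2.02 and 9.46 ± 2.19 CPM (SD, n = 3 each), with a log2 fold change of 1.77 (SE 0.19, adjusted p = 0.00477 from edgeR). Fgfrl1 passed in all 14 alternatives, with log2 fold changes from 1.63 to 1.95.

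Its promoter is shown as the start of a receptor gene that rose in every alternative, over the same window and build as that of Pdgfra (chr5:108693979-108694258, plus strand).
Fgfrl1 promoter: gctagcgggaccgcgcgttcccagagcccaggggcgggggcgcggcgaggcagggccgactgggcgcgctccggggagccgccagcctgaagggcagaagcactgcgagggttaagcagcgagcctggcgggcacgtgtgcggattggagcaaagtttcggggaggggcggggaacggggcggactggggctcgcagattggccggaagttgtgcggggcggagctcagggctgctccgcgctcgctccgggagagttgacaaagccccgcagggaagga
TGACAG did not occur on either strand of this window, so no base is in capitals.

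Relative to Fgfr1, the receptor with a kinase, Fgfrl1 stood at 0.553, 0.541 and 0.506 per length in Meis1-OE A, B and C, and at 0.210, 0.142 and 0.188 in YFP-CTRL A, B and C. The other gene of this list that rose was Flrt3, which encodes a membrane protein that associates with FGF receptors, at 70.7 to 90.8 CPM for Meis1-OE and 38.4 to 45.5 CPM for YFP-CTRL. Its log2 fold change was 0.96 (edgeR adjusted p = 0.0116), and its adjusted p was 0.0791 without Meis1-OE B and 0.0721 without Meis1-OE C. Flrt2, which was more abundant than Flrt3 in counts in every library, had a log2 fold change of 0.20 and an edgeR adjusted p of 0.582.

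Among 11 genes for the processing and binding of PDGF, 10 were tested, 4 rose, none fell, and the median log2 fold change was 0.13. Pcsk6 and Pcsk5 encode proprotein convertases, the class of protease that matures PDGF-A and PDGF-B. Pcsk6 lay between 99.6 and 167 CPM for Meis1-OE and between 25.8 and 45.0 CPM for YFP-CTRL (log2 fold change 1.87, edgeR adjusted p = 0.0107). Pcsk5 was counted 17, 72 and 68 times in Meis1-OE A, B and C and 0, 2 and 4 times in YFP-CTRL A, B and C (log2 fold change 4.46, edgeR adjusted p = 0.0265). Furin, the most widely expressed convertase, was at a log2 fold change of 0.31 (edgeR adjusted p = 0.378). St14, the gene of matriptase, a protease known to cleave PDGF-D, rose from 38, 49 and 49 counts in YFP-CTRL EC to 106, 102 and 135 in Meis1-OE EC (log2 fold change 1.14, edgeR adjusted p = 0.0304). The protease gene Plau was far more abundant, at 334 CPM with Meis1-OE and 371 CPM with YFP-CTRL (log2 fold change -0.15, edgeR adjusted p = 0.770). Plat (-0.18, edgeR adjusted p = 0.718) and Nrp1 (-0.45, edgeR adjusted p = 0.131) did not pass either. In all, 5 of the 10 log2 fold changes were negative. Lrp1, a large endocytic receptor that partners with PDGFRβ, rose from 244 ± 33.2 to 429 ± 11.6 CPM (log2 fold change 0.81, edgeR adjusted p = 0.0145). Not all of these calls held when single libraries were left out, and calls over all genes fell too. From 665 higher and 438 lower, they went to 329 and 68 without Meis1-OE A and 115 and 16 without B. They were 126 and 18 without Meis1-OE C and 204 and 66 without YFP-CTRL B. Over the alternatives, the log2 fold change ran from 1.48 to 2.05 for Pcsk6 and 3.45 to 5.26 for Pcsk5. It ran from 1.01 to 1.28 for St14 and 0.64 to 0.96 for Lrp1. Without YFP-CTRL B, the edgeR adjusted p was 0.0560 for Pcsk6, 0.121 for Pcsk5, 0.0915 for St14 and 0.0531 for Lrp1, and without Meis1-OE B it was 0.0607, 0.120, 0.137 and 0.0976. Without Meis1-OE C it was 0.0555, 0.111, 0.163 and 0.0814 in the same order, and without Meis1-OE A it was 0.0831 for St14 and 0.0633 for Lrp1. Adjusted for the proliferation score, Pcsk5 was at 3.45 (edgeR adjusted p = 0.146) and St14 at 1.17 (edgeR adjusted p = 0.0894).

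All 31 genes of the receptor adaptors and of the kinase cascade were tested, 2 rose, none fell, and the median log2 fold change was -0.029. Plcg2, which encodes a phospholipase C, lay at 32.8 to 39.9 CPM for Meis1-OE and 12.0 to 22.5 CPM for YFP-CTRL (log2 fold change 1.16, edgeR adjusted p = 0.0326). Pik3r1, the regulatory subunit of PI3 kinase, had a log2 fold change of 0.61 and an edgeR adjusted p of 0.0496, at the edge of the threshold, and did not pass in 9 of the 14 alternatives. Leaving out any library except YFP-CTRL C ended the Pik3r1 call, with adjusted p-values from 0.0607 to 0.239 by edgeR. The Plcg2 call ended without any 1 Meis1-OE library or without YFP-CTRL B, with adjusted p-values from 0.0844 to 0.154 by edgeR. The remaining 29 genes did not pass. Among them were the adaptors Gab1 (log2 fold change -0.78, edgeR adjusted p = 0.0691), Frs2 (0.31, edgeR adjusted p = 0.144) and Grb2 (0.11, edgeR adjusted p = 0.559), the exchange factor Sos2 (-0.67, edgeR adjusted p = 0.147) and the kinases Src (-0.54, edgeR adjusted p = 0.0985) and Mapk3 (0.27, edgeR adjusted p = 0.232).

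Of 21 genes that ERK signaling induces, 20 were tested, 1 rose and 3 fell, with a median log2 fold change of 0.032. Dusp6, a phosphatase that acts on ERK, rose from 155 ± 15.3 to 315 ± 47.9 CPM (log2 fold change 1.02, edgeR adjusted p = 0.0112). Myc fell from 284.6, 189 and 126 CPM in YFP-CTRL A, B and C to between 60.8 and 71.6 CPM in Meis1-OE EC (log2 fold change -1.61, edgeR adjusted p = 0.0201). Fosl1, an AP-1 subunit, had a log2 fold change of -1.36 (edgeR adjusted p = 0.0423), and Phlda1, which encodes a pleckstrin homology protein, had one of -0.75 (edgeR adjusted p = 0.0169). Genes of this list therefore changed in both directions. Of the Sprouty genes, which encode feedback inhibitors of these receptors, Spry2 had a log2 fold change of -0.56 (edgeR adjusted p = 0.0684), Spry4 one of 0.27 (edgeR adjusted p = 0.402) and Spry1 one of 0.61 (edgeR adjusted p = 0.297). Without Meis1-OE B, Meis1-OE C or YFP-CTRL B the edgeR adjusted p of Dusp6 was 0.0700, 0.0590 and just over 0.05. Without any 1 Meis1-OE library or without YFP-CTRL B it was 0.0788 to 0.118 for Myc, 0.0569 to 0.120 for Phlda1 and 0.132 to 0.187 for Fosl1, which was also at 0.0844 without YFP-CTRL A. Adjusted for the proliferation score, the log2 fold change of Fosl1 was -0.77 (edgeR adjusted p = 0.217) and that of Myc -0.90 (edgeR adjusted p = 0.0129).

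Heparan sulfate proteoglycans and the enzymes that build their chains, on which FGF2 binding depends, made a list of 28 genes. Of these 20 were tested, none rose, 1 fell, and the median log2 fold change was 0.11. At an unadjusted p under 0.05 edgeR counted 4 higher and 4 lower, beside 2050 higher and 2155 lower of all 16065 genes tested. The gene that fell was Gpc6, a glypican, with 124, 121 and 131 counts in the Meis1-OE libraries and 329, 257 and 299 in the YFP-CTRL libraries. The groups were well apart (log2 fold change -1.46, SE 0.22, edgeR adjusted p = 0.0123). Without any 1 Meis1-OE library its adjusted p was 0.0573 to 0.0863 by edgeR.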

How the data were processed

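Ribodepleted total RNA of 6 libraries was compared, 3 Meis1-OE and 3 YFP-CTRL. The values are estimated counts of reads per gene, made and deposited by the authors without normalization, and were rounded to whole numbers here. The submitters' processing notes name build mm10. The aligner, counter, annotation and strand setting are not given in the sources used here, and the study's methods name DESeq2. Replicates were independent by the study's account, and p-values measure the spread between these libraries. Labels number the replicates, the columns carry letters, and nothing ties one to the other.

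Genes were tested with edgeR 4.0.16 (TMM, filterByExpr, quasi-likelihood test, Benjamini-Hochberg adjustment over 16065 genes, threshold 0.05) and limma 3.58.1 in R 4.3.3, with SE derived from the F statistic. DESeq2 1.42.0 was an alternative. Other alternatives were edgeR's robust fit, scaling by library totals or by DESeq2's size factors, dropping the filter or asking for 10 counts throughout, leaving out libraries one at a time, and adding the column letter as a block or the proliferation score as a covariate. Scripts were tested on simulated data. Figures were made in Python 3.11.15 (matplotlib 3.10.9). CPM carry the TMM factors. Total counts of 34176642 to 47956605 set the precision. Where all libraries of a group had at most 3 counts, no fold was given, and such limits cover counting error only. With 3 libraries against 3, an exact permutation test of a single gene cannot go below 0.1 (two-sided).

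Levels per kb used the exon lengths of GENCODE vM1 (NCBIM37), with the longest transcript as an alternative. Gene coordinates and promoter windows are those of RefSeq on GRCm38.p6, the assembly mm10 represents. The promoters of Pdgfb, Pdgfrb and Fgfr1 were not analysed here.

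Members and gene lists were chosen with earlier results of these data known. Named were every member, Meis1, Fgf1, Fgfr4, up to 6 genes per list that passed, with the largest log2 fold changes, and the 3 genes most correlated with the member of smallest p. The ratios, the printed promoters, the marker genes and the genes given as not passing were picked after values were seen.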

Additional observations from a re-analysis of the deposited data

How the results depend on the processing

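No member passed in the main comparison. On library totals 2 members were higher, without a filter 1 was higher and 1 lower, and with DESeq2 1 was higher and 1 lower. Leaving out single libraries gave 0 to 3 higher and 0 to 2 lower. Over all genes the counts of 665 higher and 438 lower became 1048 and 179 on library totals and 1128 and 1115 with DESeq2, 384 were higher with the proliferation score as a covariate, and leaving out single libraries gave 115 to 2717 higher and 16 to 2498 lower. The other FGF genes gave 1 call in place of 2 on library totals and with the covariate, and 1 to 2 without single libraries. They gave 0 when 10 counts were asked of every library, which removed Fgf1 and left Fgf15 at an edgeR adjusted p of 0.0505. The other FGF receptors and binding proteins gave 1 to 3 calls without single libraries (2 with all). PDGF processing and binding proteins gave 2 calls in place of 4 with the covariate and 0 to 4 without single libraries. Receptor adaptors and the kinase cascade gave 1 in place of 2 with DESeq2 size factors, no filter or the covariate, 4 on library totals and 0 to 9 without single libraries. ERK feedback and target genes gave 8 in place of 4 with DESeq2 and 0 to 10 without single libraries. The heparan sulfate list gave 2 in place of 1 on library totals or without a filter, 5 with DESeq2 and 0 to 9 without single libraries. The cause was not tested.

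Fgf2 turned to -0.20 with the covariate. Fgfr2 turned to 0.077 on library totals and 0.043 with the letter as a replicate block, and ran from -0.68 to 0.80 without single libraries. Fgfr3 ran from -0.40 to 0.10 without single libraries. Every other member kept its direction under the alternatives that tested it. Depth limits Pdgfc, Fgfr2 and Fgfr3.

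The column letter as a replicate block left 189 genes lower over all genes, 1 call among the other FGF genes, 1 among the receptor adaptors 2 in the heparan sulfate list, 3 in place of 4 among PDGF processing and binding proteins (St14, adjusted p = 0.0580, edgeR) and 3 in place of 4 among ERK feedback and target genes (Fosl1, adjusted p = 0.0634, edgeR), and no member passed. Pdgfb was 1.33 (adjusted p = 0.0707, edgeR) and Pdgfra -1.32 (adjusted p = 0.0865, edgeR). Deviations from the group means of libraries with the same letter correlated at 0.245 for A, 0.190 for B and 0.0809 for C. Between different letters, Meis1-OE C correlated with YFP-CTRL B at 0.249, and the others were negative, from -0.301 to -0.0275. With 3 libraries a group the deviations depend on one another, so these values cannot decide whether the letters mark pairs. The study's methods name no pairing, so the main test did not treat the letters as pairs.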
